A study of Arabidopsis thaliana with 4 samples.

Results

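The 300 protein-coding genes described here are those whose gene bodies carried the least RNA polymerase II in *hyl1-2* leaves relative to WT leaves. They were selected on the reads themselves, among 26555 of the 27444 nuclear protein-coding genes that had at least 50 reads over the whole gene in each of 4 libraries. For each gene the ChIP reads per 1000000 kept reads of the library (RPM) were divided by the input RPM of the same genotype, which gave a ratio of ChIP over input, and the *hyl1-2* ratio was divided by the WT ratio to give the fold change. A 95% counting interval was set around the fold change from the 4 read counts, and the members are the 300 genes with the lowest upper bound of that interval. Because the members were chosen by this contrast, their fold changes are given as a description without a test. The libraries came from one chromatin immunoprecipitation (ChIP) experiment with an antibody against total RNA polymerase II (Abcam ab817) on nuclei of formaldehyde-crosslinked leaves from soil-grown plants of 21 days, kept at 22 °C in long days. The mutant was *hyl1-2*, a knock-out of HYL1, and the reference was the WT accession Col-0. One ChIP and one input library (chromatin without immunoprecipitation) were analysed per genotype. There was no replicate, so intervals cover counting error only and differences between individual plants or preparations cannot be told apart from those between genotypes. A leaf holds many cell types, and fewer cells carrying polymerase on a gene and less polymerase per cell cannot be told apart either.

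RNA polymerase II transcribes protein-coding genes and most non-coding genes, including those for microRNA precursors. In ChIP with an antibody to total polymerase, fragments over a gene body come from polymerase that is elongating or held there, together with the background that every immunoprecipitation carries. HYL1 is a double-stranded RNA-binding protein that works with the DICER-LIKE1 enzyme in cutting microRNA precursors. Genes that are off in a leaf, such as those of seed reserves or pollen, should carry little polymerase there, and the input shows how often the same stretch of chromatin is sheared and sequenced without the antibody.

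The libraries held 26712389 reads with a mapping score above 0 for *hyl1-2* ChIP, 19502710 for *hyl1-2* input, 32266083 for WT ChIP and 15181698 for WT input. HYL1 itself had ChIP over input of 3.90 in *hyl1-2* and 1.08 in WT, which does not test for the loss of the protein. The leaf label was checked with 9 leaf marker genes, among them RBCS1A, CAB1 and PSAD-1, whose ChIP over input ran from 1.08 to 5.07 in *hyl1-2* and from 0.628 to 1.17 in WT. In the WT library these leaf genes were lower than 8 seed genes (1.53 to 2.66) and 5 root genes (1.34 to 1.81), while 6 pollen genes (1.09 to 1.94) overlapped them. In *hyl1-2* the seed genes had 0.921 to 1.72, the root genes 0.927 to 1.3 and the pollen genes 0.884 to 1.44, and the pollen gene LLG2 had a fold change above 1 (1.32). In the WT ChIP library the leaf genes were therefore not the highest of these markers, and every fold change below has that library in its denominator. The part of this in the selection of the members was not tested. None of the 9 leaf genes, 4 of the 8 seed genes, none of the 5 root genes and none of the 6 pollen genes were members.

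Among the members were 4 genes for seed storage proteins, which are made in the developing embryo and are normally silent in leaves. The bases upstream of these genes are shown because the promoter windows were also counted. Each line is the 200 bp before the annotated 5′ end, read 5′ to 3′ from the TAIR10.1 assembly, and capitals mark RY elements (CATGCA on either strand, a sequence bound by regulators of seed maturation). The window of SESA1 is chr4:13607129-13607328 on the plus strand, that of CRA1 chr5:17758337-17758536 on the minus strand, that of CRU2 chr1:985551-985750 on the plus strand and that of CRU3 chr4:14087356-14087555 on the plus strand.
SESA1: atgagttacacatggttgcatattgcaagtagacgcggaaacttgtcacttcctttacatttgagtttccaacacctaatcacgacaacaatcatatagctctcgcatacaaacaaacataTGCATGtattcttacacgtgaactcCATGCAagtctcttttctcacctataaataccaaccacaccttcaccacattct
CRA1: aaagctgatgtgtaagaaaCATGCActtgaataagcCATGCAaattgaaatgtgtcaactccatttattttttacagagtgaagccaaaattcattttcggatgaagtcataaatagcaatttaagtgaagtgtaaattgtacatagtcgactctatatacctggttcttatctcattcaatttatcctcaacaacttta
CRU2: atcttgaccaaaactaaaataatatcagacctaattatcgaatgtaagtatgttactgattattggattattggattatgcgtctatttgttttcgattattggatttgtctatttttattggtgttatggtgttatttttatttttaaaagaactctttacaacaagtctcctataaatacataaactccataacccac
CRU3: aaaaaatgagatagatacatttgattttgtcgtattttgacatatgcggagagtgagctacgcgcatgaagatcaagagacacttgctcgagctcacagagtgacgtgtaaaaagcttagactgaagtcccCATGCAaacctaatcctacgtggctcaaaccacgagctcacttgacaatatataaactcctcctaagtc

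SESA1 and CRA1 held 2 RY elements each in this window, CRU3 held 1 and CRU2 held 0. Over all members, 28 of 300 (9.33%) had the element within 250 bp upstream, beside 2247 of 26555 tested genes (8.46%). A match is a description of the letters, not evidence of a bound site.

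Stretches of coding sequence are shown for 3 members as examples of base composition and repeats, whose effect on the counts was not tested. Each is the middle 120 bases of the longest coding segment, from TAIR10.1, with runs of at least 3 G or C in capitals. AT4G06643 is the gene with the lowest upper bound (chr4:3759560-3759679, plus strand), AT4G01985 has the highest GC content of any member (chr4:867196-867315, minus strand) and HRGP1, a hydroxyproline-rich cell wall glycoprotein gene, is built of short repeats (chr3:20207296-20207415, plus strand).
AT4G06643: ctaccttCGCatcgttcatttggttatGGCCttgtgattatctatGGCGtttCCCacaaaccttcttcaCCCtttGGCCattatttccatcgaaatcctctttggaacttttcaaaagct
AT4G01985: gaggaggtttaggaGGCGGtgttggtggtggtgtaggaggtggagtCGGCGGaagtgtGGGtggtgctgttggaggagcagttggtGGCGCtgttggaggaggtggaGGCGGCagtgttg
HRGP1: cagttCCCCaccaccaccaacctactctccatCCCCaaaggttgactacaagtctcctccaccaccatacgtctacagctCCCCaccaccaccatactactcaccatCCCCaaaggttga

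These stretches had 41.7% GC for AT4G06643, 62.5% for AT4G01985 and 54.2% for HRGP1. Over the whole gene the GC content was 42.4% for AT4G06643, 57.1% for AT4G01985 and 46.6% for HRGP1.

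The members spanned a narrow band of fold change. Their fold changes ran from 0.414 to 0.694 with a median of 0.587 (log2 -0.77), while the median over all tested genes was 0.936 (log2 -0.10). All 300 had an interval below 1, which the rule fixes, and 8376 of the 26555 tested genes (31.5%) did so, so an interval below 1 was common in this comparison and nothing is read from the members' count. A further 6193 tested genes (23.3%) had an interval above 1. At the edge of the selection the last 3 members were AT1G54890 (0.616-fold, 0.505 to 0.750), AT1G49260 (0.585-fold, 0.456 to 0.750) and XID, a myosin gene (0.694-fold, 0.641 to 0.750). The first 3 genes outside were AT3G03405 (0.579-fold, 0.447 to 0.750), AT1G11990 (0.648-fold, 0.559 to 0.751) and AT5G39970 (0.648-fold, 0.559 to 0.751). The intervals of the 3 genes inside the edge and of the 3 outside overlapped.

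The members shared a high ratio in WT and, in *hyl1-2*, a ratio that was on the whole slightly above that of other genes. The median ChIP over input of the members was 1.1 in *hyl1-2* and 1.85 in WT, beside 1.01 in *hyl1-2* and 1.04 in WT over all tested genes. The members ran from 0.493 to 2.30 in *hyl1-2* and from 0.929 to 4.85 in WT. In *hyl1-2*, 17 members (5.67%) had a ratio above 1.5, while in WT 273 (91.0%) did, against 2836 (10.7%) and 3229 (12.2%) of tested genes for *hyl1-2* and WT. A ratio above 1 in *hyl1-2* was found at 219 members (73.0%) and 13551 tested genes (51.0%), and 59 of the 63 members in gene-poor bins (93.7%; the bins are defined with the locations) exceeded the *hyl1-2* median of tested genes. When tested genes were put in 10 classes of equal size by WT ratio, 254 members fell in the highest class and 38 in the class below it. The median fold change over all tested genes was 1.46 in the lowest class and 0.714 in the highest, lower in each class than in the one below, so the members sat at the end of a gradient of the whole gene set. WT ratio enters the fold change as its denominator, and this order is a description of the selection.

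**Figure D1:**
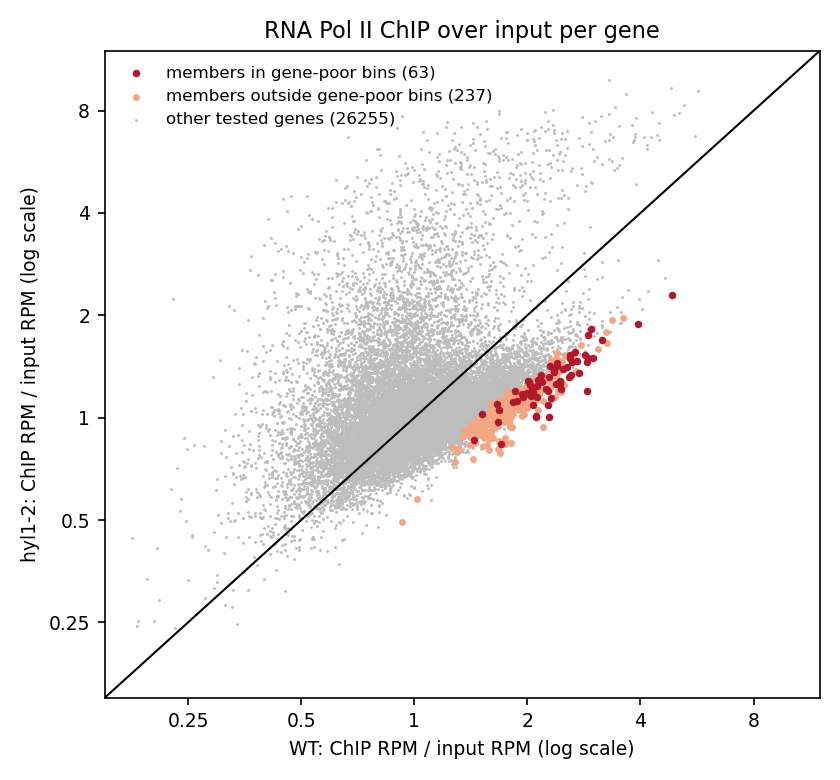
RNA polymerase II ChIP over input of each tested gene in *hyl1-2* (vertical axis) and WT (horizontal axis), both on log scales, with the line of equality. Members in gene-poor bins (63, dark red) and elsewhere (237, orange) lie below the line, mostly between 1.5 and 3 in WT and near 1 in *hyl1-2*, beside the other tested genes in grey.

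Both ChIP and input moved within the ratio. ChIP RPM was lower in *hyl1-2* than in WT at all 300 members and at 15555 of 26555 tested genes (58.6%). The ratio of *hyl1-2* ChIP over WT ChIP was 0.537 to 0.804 at the members (median 0.677), beside a median of 0.940 over tested genes. At 296 of 300 members (98.7%) the *hyl1-2* input RPM exceeded the WT input RPM, with a median of 1.15, while 15092 of 26555 tested genes (56.8%) were higher and the median was 1.01. When the ChIP libraries were compared without their inputs, the median fold change of the members was 0.677 and 123 of the 300 were again among the 300 lowest genes. The identity of the members therefore depended on the input libraries. Every member stayed below 1, but the same ChIP reads had been used to choose them. The input reads had been used too, and the rule favours genes with more *hyl1-2* input and less WT input. The count of 296 is therefore a description of the selection.

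The member with the lowest upper bound was AT4G06643, an uncharacterised gene of 924 bp on chromosome 4 (chr4:3758957-3759880). It had 306 ChIP reads and 187 input reads in *hyl1-2*, against 607 ChIP reads and 99 input reads in WT. ChIP over input was 1.19 in *hyl1-2* and 2.88 in WT, a fold change of 0.414 (0.313 to 0.548). The intervals of the 2 ratios did not meet, and the WT library pair combined more ChIP reads with fewer input reads. AT3G45910, also uncharacterised, came next with 225 ChIP and 175 input reads in *hyl1-2*, against 464 and 99 in WT, a fold change of 0.426 (0.317 to 0.571). In both genes the input RPM was higher in *hyl1-2* (9.59 and 8.97) than in WT (6.52 in each).

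AT2G07240, a gene of 5232 bp for a cysteine-type peptidase, had the most reads among the first 10 members and was the longest of them. It had 1512 ChIP and 1013 input reads in *hyl1-2* and 2951 ChIP and 672 input reads in WT, with a fold change of 0.527 (0.470 to 0.592). AT1G35550, which carries the C-terminal domain of elongation factor Tu, had 211 ChIP and 153 input reads in *hyl1-2*, against 475 and 98 in WT, a fold change of 0.442 (0.327 to 0.597). AT4G03830, of the DUF601 family, had ChIP over input of 1.60 in *hyl1-2* and 3.09 in WT. AT4G27890, a small heat shock protein (HSP20-like) gene, had ChIP over input of 0.870 in *hyl1-2* and 1.75 in WT. It was the single member among 262 tested heat shock and chaperone genes (0.382%, beside 1.13% of all tested genes). The next members of the ranking were AT3G43148, a myosin heavy chain-like gene (1.53 in *hyl1-2*, 2.86 in WT), AT1G44224, a small cysteine-rich protein gene of the ECA1 gametogenesis family (1.00 in *hyl1-2*, 2.11 in WT), AT3G30820, annotated as a retrotransposon ORF-1 protein (1.32 in *hyl1-2*, 2.59 in WT), and AT4G01985 (1.66 in *hyl1-2*, 3.25 in WT). In all 10 the WT ratio was above 1.7, whereas the *hyl1-2* ratio was between 0.870 and 1.66.

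**Figure D2:**
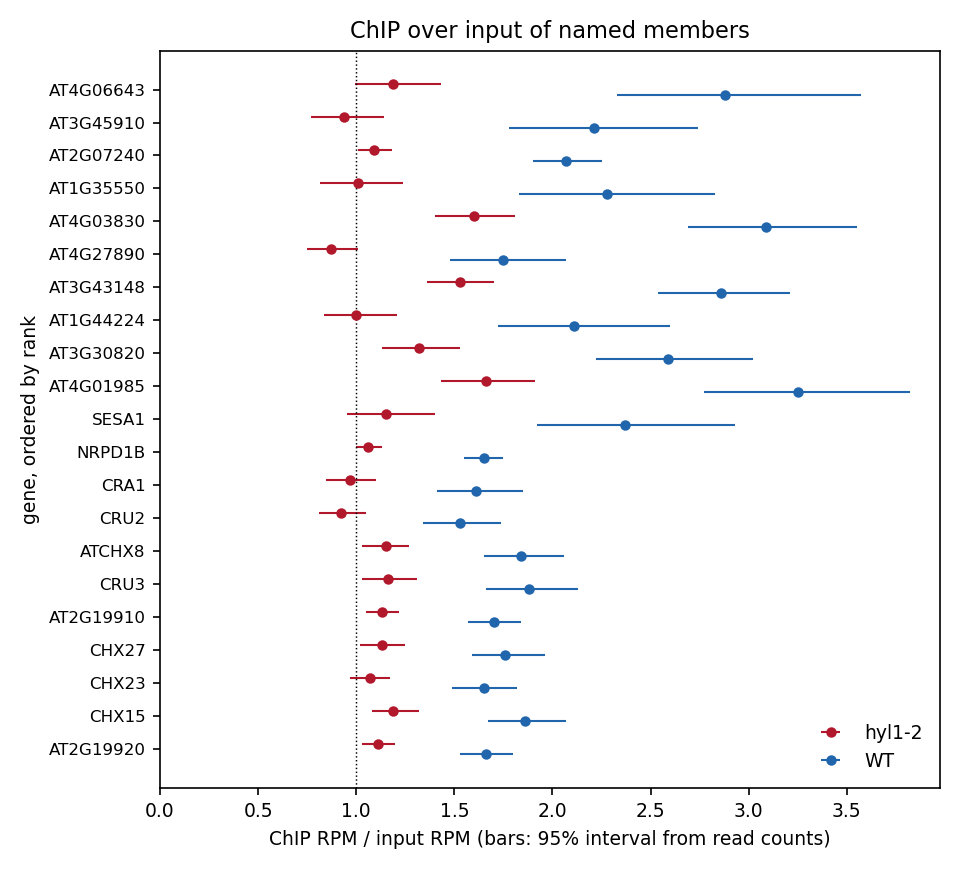
ChIP RPM over input RPM in *hyl1-2* (red) and WT (blue) for the 10 members with the lowest upper bound and for members of 3 gene groups (seed storage, cation/proton exchangers, RNA silencing), in order of rank from the top; bars are 95% intervals from the read counts of one library pair. In every gene shown the WT point lies right of the *hyl1-2* point, for example 2.88 and 1.19 at AT4G06643.

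Several of the highest WT ratios belonged to genes whose reads also map elsewhere. AT2G09388 had ChIP over input of 2.30 in *hyl1-2* and 4.85 in WT, from 321 ChIP and 102 input reads in *hyl1-2* and 629 ChIP and 61 input reads in WT, and 58.9% of its input reads had mapping score 0 and were left out. AT2G06908 had 1.88 in *hyl1-2* and 3.95 in WT, AT2G14395 had 1.97 in *hyl1-2* and 3.59 in WT, and HRGP1 had 1.93 in *hyl1-2* and 3.36 in WT, with 52.4% of input reads at score 0 in HRGP1. Of all members, 30 (10%) lost over 20% of their input reads this way, beside 1305 of 26555 tested genes (4.91%), and their counts are uncertain in so far as near-identical copies share reads. At the other end AT5G11416 (0.493 in *hyl1-2*, 0.929 in WT) was the single member with a WT ratio below 1.

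Outside the gene-poor bins, and with a WT ratio above the tested median, the lowest fold changes were in short genes. The rule admits a gene with few reads only at a lower fold change, so nothing is read from their length. AT3G45910 (0.426) was followed by AT3G11990 (0.466), an ECA1 gametogenesis family gene, and by AT5G10435 (0.467), AT5G15000 (0.480), another gene of the ECA1 family, and AT3G14480 (0.482), a glycine/proline-rich protein gene. AT5G15000 is 297 bp long and rested on 104 ChIP and 91 input reads in *hyl1-2* and 196 ChIP and 53 input reads in WT. Its interval, 0.317 to 0.725, was accordingly wide.

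The members were spread over all 5 chromosomes and were denser in gene-poor regions. There were 62 on chromosome 1, 60 on chromosome 2, 59 on chromosome 3, 48 on chromosome 4 and 71 on chromosome 5, which is 0.892%, 1.45%, 1.11%, 1.18% and 1.16% of the tested genes of each. Bins of 1 Mb with under 50% of the median number of protein-coding genes (261 per bin) were called gene-poor; 20 of 121 bins qualified, and in this plant such bins surround the centromeres. They held 63 of the 300 members (21.0%) and 1073 of the 26555 tested genes (4.04%). Of the tested genes in these bins 5.87% were members, compared with 0.930% elsewhere. By distance from the centre of the gene-poorest bin of each chromosome, 27 of 352 tested genes within 1 Mb were members (7.67%), 40 of 807 between 1 and 2 Mb (4.96%), 54 of 3868 between 2 and 4 Mb (1.40%) and 66 of 8877 beyond 10 Mb (0.743%). In the 3 classes from 4 to 10 Mb the share was 0.883%, 0.786% and 1.00%, with no steady order. The median fold change of all tested genes was 0.808 within 1 Mb, 0.930 to 0.939 in those 3 classes and 0.970 beyond 10 Mb.

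**Figure D3:**
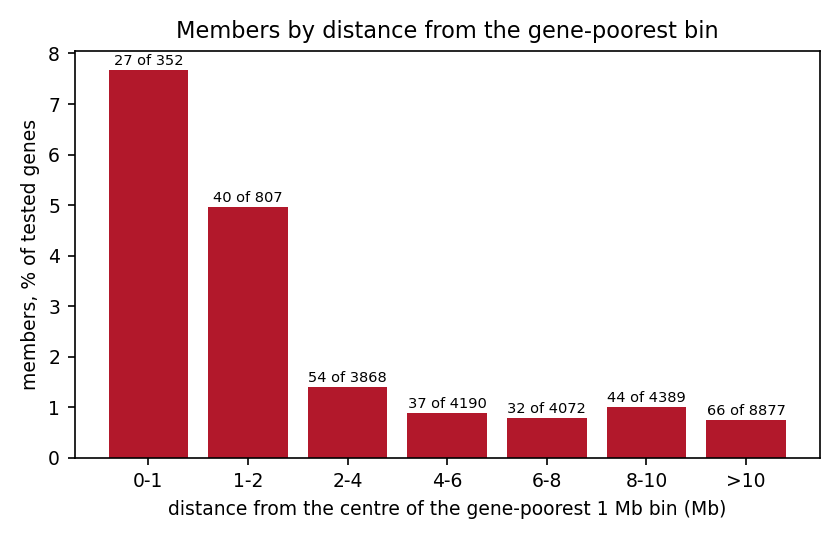
Members as a percentage of tested genes by distance (Mb) from the centre of the gene-poorest 1 Mb bin of their chromosome, with numbers above the bars. The share was 7.67% within 1 Mb and 0.743% beyond 10 Mb.

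Chromosome 2 carried the most members in gene-poor bins, 19 of its 60. These 19 were 8.23% of its 231 tested genes in such bins, beside 5.87% over all chromosomes. Chromosome 3 had more tested genes in such bins (292), of which 15 were members (5.14%). On chromosomes 1, 4 and 5 the share was 4.78%, 5.62% and 5.52%. The longest runs of neighbouring members held 3 genes each, and 37 members lay in 17 runs of at least 2. In 5 of the 17 runs, all of them pairs, the genes overlap on opposite strands, such as AT3G14463 within AT3G14460, and since reads were counted without regard to strand such pairs share reads, over 102 bp (AT2G34910 and EDA18) to 1971 bp (AT4G22475 and AT4G22485). None of the 3 runs of 3 holds an overlap. One run joined MCM5, a subunit of the replicative DNA helicase, to AT2G07750, an RNA helicase gene, and AT2G07760, a zinc knuckle gene (chr2:3522984-3586278), with fold changes of 0.661, 0.536 and 0.618. A second joined AT2G11005, AT2G11010 and AT2G11015 (chr2:4348511-4366640), with 0.493, 0.615 and 0.512. The third lay on an arm and joined NF-YC6 and NF-YC5, genes for subunits of the CCAAT-binding NF-Y factor, to AT5G50500 (chr5:20557574-20562557). NF-YC6 had 310 ChIP and 202 input reads in *hyl1-2*, against 597 and 128 in WT, NF-YC5 had 217 and 185 in *hyl1-2*, against 424 and 119 in WT, and AT5G50500 had 162 and 112 in *hyl1-2*, against 300 and 66 in WT. Their fold changes, 0.511, 0.511 and 0.494, differed by less than their intervals.

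Genes next to a member that were not members themselves also lay below the rest. In gene-poor bins 92 such neighbours had a median fold change of 0.761 and 918 other genes 0.843, and outside them 428 neighbours had 0.824 and 24817 other genes 0.946. An interval below 1 was found at 217 of those 428 neighbours (50.7%) and at 7422 of the 24817 others (29.9%). Neighbours share chromatin and overlapping fragments with the member, so these values are no separate measurement of it.

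Members in gene-poor bins had higher median ratios than the other members in both genotypes. The 63 in gene-poor bins had medians of 1.27 in *hyl1-2* and 2.28 in WT, and the 237 elsewhere 1.07 in *hyl1-2* and 1.78 in WT. The median fold change was 0.574 in gene-poor bins and 0.592 elsewhere. The rule holds all members to a narrow band of fold change, so nothing is read from the closeness of these medians. Among all 1073 tested genes of gene-poor bins the medians were 1.08 in *hyl1-2* and 1.26 in WT. The median fold change of all tested genes was 0.824 in gene-poor bins and 0.941 outside them.

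Along the genes, the reads summed over members outside gene-poor bins formed a plateau over the gene body that was taller in WT. In part 6 of the 10 equal parts of the gene the summed ratio was 1.23 in *hyl1-2* and 2.17 in WT, and between 400 and 200 bp upstream it was 0.673 in *hyl1-2* and 0.691 in WT. The fold change of the summed reads was thus 0.974 in that upstream stretch, the closest to 1 of those upstream. It was 0.917 between 1000 and 800 bp upstream and 0.790 in the 200 bp before the gene. Further along it was 0.637 in part 1 of the gene, 0.567 in part 6 and 0.780 in the first 200 bp downstream. In gene-poor bins the flanks differed too. The summed ratio between 1000 and 800 bp upstream was 1.13 in *hyl1-2* and 1.59 in WT (0.714-fold), and in part 5 of the gene it was 1.38 in *hyl1-2* and 2.56 in WT (0.539-fold). Over all tested genes the summed ratios were 0.956 in *hyl1-2* and 0.821 in WT in part 1 of the gene (1.16-fold), 1.26 in *hyl1-2* and 1.3 in WT in part 6 (0.975-fold), and 1.20 in *hyl1-2* and 0.969 in WT in part 10 (1.24-fold). In the first 200 bp downstream they were 1.17 in *hyl1-2* and 0.810 in WT, and between 400 and 200 bp upstream 0.733 in *hyl1-2* and 0.581 in WT (1.26-fold).

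**Figure D4:**
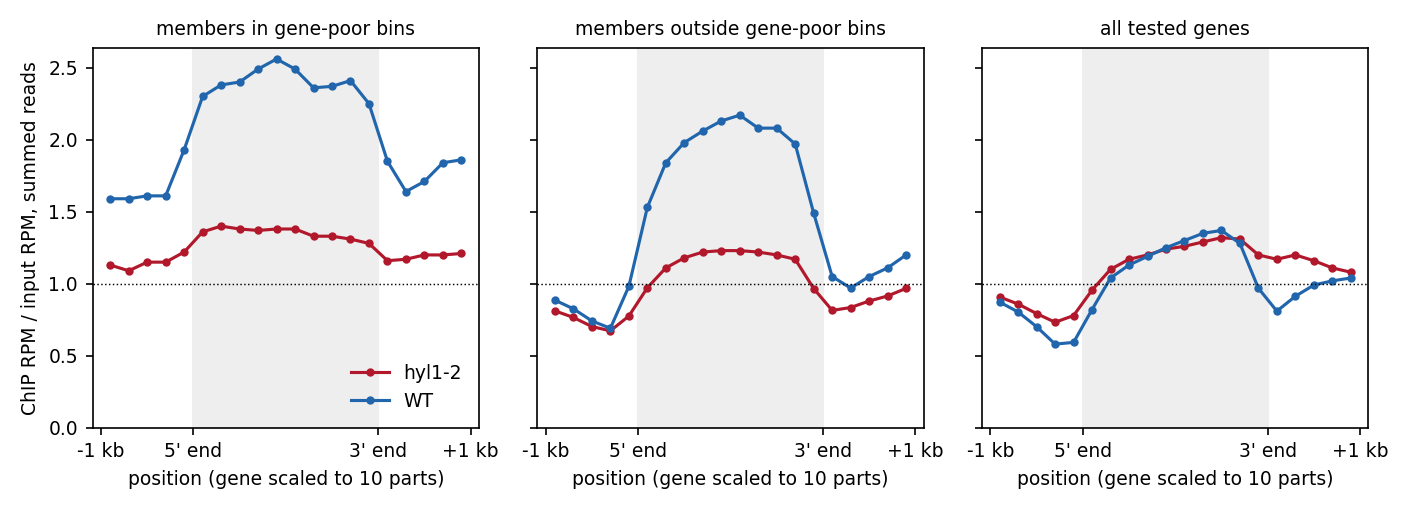
Summed ChIP RPM over summed input RPM along members in gene-poor bins, members elsewhere and all tested genes, in *hyl1-2* (red) and WT (blue). The gene (grey) is scaled to 10 parts and flanked by 5 windows of 200 bp on both sides; WT stands above *hyl1-2* over the body of the members (1.23 in *hyl1-2* and 2.17 in WT in part 6, outside gene-poor bins) and the 2 curves nearly meet upstream of those genes.

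Single windows were also counted gene by gene, as a description. The first and last 200 bp lie inside the gene that was ranked, and reads that reach over a gene end also fall in the windows beside it, so these values are not independent of the selection. Windows needed 10 reads or more in every library. Among members the 200 bp promoter window had a median fold change of 0.781 (231 of 293 below 1), the first 200 bp of the gene 0.614 (289 of 299), the last 200 bp 0.619 (279 of 296) and the 500 bp downstream 0.778 (239 of 299). Over all tested genes the medians of those windows were 1.32, 1.16, 1.14 and 1.19, and 27.6%, 38.2%, 38.5% and 34.5% of genes were below 1. The seed genes show how far single promoters can be read. SESA1 had a promoter fold change of 0.770 (0.506 to 1.17), CRA1 of 0.662 (0.411 to 1.07), CRU3 of 0.821 (0.530 to 1.27) and CRU2 of 1.29 (0.715 to 2.34). The intervals of all 4 promoter windows shown above included 1. Those of SESA1, CRA1 and CRU3 lay below 1.32, the median of tested genes for this window, and that of CRU2 included it.

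The members were richer in G and C than other genes, a property the rule did not use. Their median GC content was 42.2% (range 34.9% to 57.1%) beside 38.8% over tested genes, and 157 members (52.3%) were above 42% beside 3627 tested genes (13.7%). Of the 3803 tested genes under 36% GC, 3 were members (0.0789%), while 25 of the 177 genes of at least 48% were (14.1%). Over all tested genes the median ratio went up with GC in both genotypes. It was 0.825 in *hyl1-2* and 0.800 in WT below 36% GC, and 1.37 in *hyl1-2* and 1.90 in WT from 48% GC, so the gap between genotypes was wider at high GC, and the median fold change was 0.986 in the lowest class and 0.719 in the highest. When each gene's fold change was set against the median of tested genes of the same whole percent of GC content, 201 of the 300 members were again among the 300 lowest and the median of the members was 0.662. The part that GC content has in the selection of the members was not tested further.

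**Figure D5:**
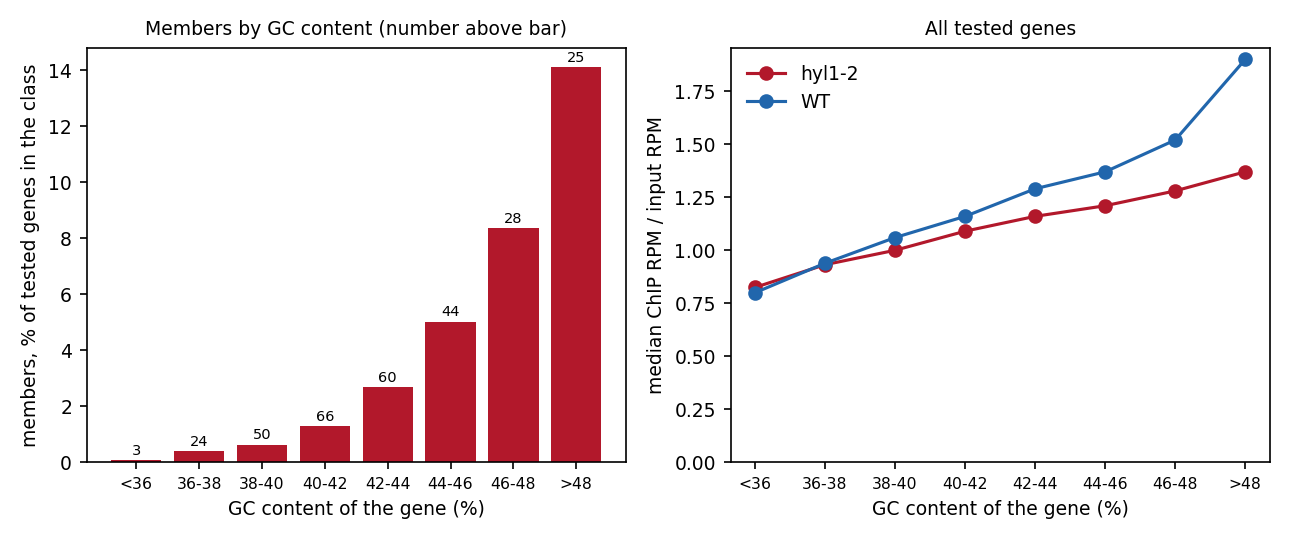
Left, members as a percentage of tested genes in classes of GC content, with the number of members above each bar; right, median ChIP over input of all tested genes in the same classes in *hyl1-2* (red) and WT (blue). The share of members was 0.0789% below 36% GC and 14.1% from 48% GC, and the medians of the highest class were 1.37 in *hyl1-2* and 1.90 in WT.

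Members were somewhat shorter and had fewer exons. The median length was 1786 bp beside 2115 bp for tested genes, the median number of exons was 3 beside 4, and 82 members (27.3%) had 1 exon beside 5153 tested genes (19.4%). The coding part was longer than usual, at a median of 1248 bp beside 1065 bp. The median upstream GC content over 250 bp, 32.0%, was close to the 31.2% of tested genes.

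Motif shares upstream were counted as a description. Within 250 bp upstream and on both strands, the TATA box (TATAAA) was found at 47.7% of members and 47.4% of tested genes, the W-box (TTGACC or TTGACT) bound by WRKY factors at 26.7% and 28.4%, the drought-responsive element DRE (CCGAC) at 12.3% and 11.9%, and the heat shock element (GAANNTTC) at 10.7% and 9.57%. Site II elements (TGGGCC or TGGGCT), common upstream of ribosomal and cell division genes, were found at 11.7% of members and 19.5% of tested genes. The G-box (CACGTG) stood at 3.0% and 6.60%, the evening element (AAATATCT) at 2.67% and 4.83%, the telo box (AAACCCTA) at 6.67% and 4.49% and the GCC box (GCCGCC) at 3.33% and 1.82%.

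By product name the members were a mixed set in which no single function dominated. Genes for uncharacterised proteins made up 62 of the 300 (20.7%), beside 13.5% of tested genes, and 24 of those 62 lay in gene-poor bins. Another 94 members carried none of the names grouped here. Over all tested genes 1.13% were members and 31.5% had an interval below 1, and each group below is to be read beside these shares. Groups of under 100 genes would hold few members at that share, so a count of 0 in them says little. Members were absent among the 63 tested genes of photosystems and chlorophyll binding, the 24 of the Calvin cycle and Rubisco, the 378 for ribosomal proteins and the 52 for histones. Those groups had median fold changes of 1.72 for photosystems, 1.21 for the Calvin cycle, 1.20 for ribosomal proteins and 1.69 for histones, beside 0.936 for all tested genes.

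Of the groups, seed storage proteins had the largest share of members. Of 9 tested genes 4 were members (44.4%, beside 1.13% of all tested genes), and 8 of the 9 had an interval below 1 (88.9%, beside 31.5%). SESA1, a small albumin, had 267 ChIP and 169 input reads in *hyl1-2*, against 524 and 104 in WT, with a fold change of 0.487 (0.366 to 0.647). CRA1, CRU2 and CRU3 encode the cruciferins, the large storage globulins. CRA1 had 513 ChIP and 387 input reads in *hyl1-2*, against 947 and 276 in WT, CRU2 had 545 and 432 in *hyl1-2*, against 938 and 289 in WT, and CRU3 had 694 and 435 in *hyl1-2*, against 1206 and 302 in WT. The fold changes were 0.599, 0.603 and 0.620, and in *hyl1-2* the ratios of the 4 genes lay between 0.921 and 1.16. The related albumin genes SESA2 (0.599), SESA3 (0.698) and SESA4 (0.622) were lower too but lay outside the 300. This group was added after the members had been seen.

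The organ words in the annotation of the members were counted as a description. Words for seed or embryo stood in the annotation of 9 members (3.0%) and 3.20% of tested genes, words for root in 5 members (1.67%) and 2.40%, and words for pollen, anther or gametophyte in 11 members (3.67%) and 1.90%. Words for flower or meristem stood in that of 3 members (1.00%) and 1.89% of tested genes. Only 72 members (24.0%) had a descriptive note, beside 32.0% of tested genes, which limits this count. Single genes of this kind, picked for their known roles, were PRK1, a receptor kinase of pollen (1.28 in *hyl1-2*, 2.01 in WT), STP6, a sugar transporter of pollen (1.17 in *hyl1-2*, 1.92 in WT), SUC9, a sucrose transporter (1.16 in *hyl1-2*, 1.92 in WT), and LRX1, a cell wall protein of root hairs (0.608-fold). All 4 had ChIP over input between 1.16 and 1.28 in *hyl1-2*.

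Transporters and channels supplied 22 members of 845 tested genes (2.60%, beside 1.13% of all tested genes). The first was AT2G38510, a MATE efflux carrier, with 480 ChIP and 273 input reads in *hyl1-2*, against 973 and 190 in WT, a fold change of 0.533 (0.430 to 0.661). Cation/proton exchangers, most of which are known from pollen, gave 4 members of 30 tested genes (13.3%, beside 1.13% of all tested genes), and 24 of the 30 had an interval below 1 (80.0%, beside 31.5%). This group was added after the members had been seen. Those members were ATCHX8 (0.623), CHX27 (0.639), CHX15 (0.643) and CHX23 (0.647), and their ratios ran from 1.07 to 1.19 in *hyl1-2* and from 1.65 to 1.86 in WT. Nutrient carriers among the members were PHT1;3, for phosphate (1.44 in *hyl1-2*, 2.41 in WT), and NRT2.2, for nitrate (1.27 in *hyl1-2*, 2.08 in WT), with 17.8% and 23.2% of their input reads at score 0.

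By product name, 6 of 187 NLR immune receptor genes (3.21%) and 7 of 493 receptor-like kinases and proteins (1.42%) were members. The second share was near the 1.13% of all tested genes. AT3G14460, an NLR gene of 4461 bp, had 1357 ChIP and 857 input reads in *hyl1-2*, against 2397 and 584 in WT, a fold change of 0.599 (0.529 to 0.678), with the reads of AT3G14463 among them. GHR1, a receptor-like kinase of guard cells, had 1136 ChIP and 719 input reads in *hyl1-2*, against 1981 and 506 in WT (0.626-fold). Genes for C1 domain proteins, cysteine- and histidine-rich proteins of mostly unknown role, gave 7 members of 151 tested genes (4.64%), with a median fold change of 0.750 and an interval below 1 at 123 of 151 (81.5%, beside 31.5% of all tested genes). The first of them, AT3G25850, had 0.942 in *hyl1-2* and 1.80 in WT. F-box genes, whose products select proteins for degradation, gave 8 members of 631 (1.27%, near the 1.13% of all tested genes), led by AT2G14288 (0.491), and RING and zinc finger genes 6 of 883 (0.680%), led by AT3G45510 (0.534).

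Genes grouped by product name as transposon-derived gave 9 members of 204 tested genes (4.41%, beside 1.13% of all tested genes), and 104 of the 204 (51.0%, beside 31.5%) had an interval below 1. The names also took in zinc knuckle, ribonuclease H-like and mobile domain families, so a transposon origin was not shown for each gene. The first member of the group was AT3G30820, with 481 ChIP and 267 input reads in *hyl1-2*, against 1044 and 190 in WT, a fold change of 0.509 (0.410 to 0.631). Genes named myosin heavy chain-like, a name for long coiled-coil products of unknown function, gave 8 members of 30 (26.7%), of which 7 lay in gene-poor bins. AT3G43148 (0.534), AT3G42060 (0.543) and AT3G30230 (0.558) came first among them, with ratios between 1.21 and 1.53 in *hyl1-2* and between 2.24 and 2.86 in WT. This group was also added after the members had been seen.

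Of 31 tested genes for RNA silencing, which includes the silencing of transposons, 3 were members (9.68%, beside 1.13% of all tested genes), and 2 of those 3 are neighbours on the chromosome. An interval below 1 was found at 22 of the 31 (71.0%, beside 31.5%), with a median fold change of 0.774. NRPD1B encodes the largest subunit of RNA polymerase V, which makes the scaffold transcripts of RNA-directed DNA methylation. It had 2664 ChIP and 1828 input reads in *hyl1-2*, against 4659 and 1329 in WT, a fold change of 0.645 (0.592 to 0.702). The others were the neighbouring RNA-dependent RNA polymerase genes AT2G19910 (1.13 in *hyl1-2*, 1.70 in WT) and AT2G19920 (1.11 in *hyl1-2*, 1.66 in WT). SUVH5, a histone H3 lysine 9 methyltransferase (0.964 in *hyl1-2*, 1.49 in WT), was the single member of 117 chromatin genes. That is 0.855%, near the 1.13% of all tested genes. An interval below 1 was found at 69 of the 117 (59.0%, beside 31.5%).

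Genes of DNA replication, repair and cell division, which are most active in dividing cells, gave 7 members of 233 (3.0%, beside 1.13% of all tested genes), with an interval below 1 at 123 of the 233 (52.8%, beside 31.5%). MCM4 had 1256 ChIP and 987 input reads in *hyl1-2*, against 2079 and 646 in WT, a fold change of 0.614 (0.543 to 0.693), and MCM5, from the same helicase, had 1364 and 905 in *hyl1-2*, against 2297 and 649 in WT (0.661-fold). Other members of this group were TOP3A, a topoisomerase (1.44 in WT), SYN3, a cohesin subunit (1.73 in WT), and PAKRP1, a kinesin of the dividing cell plate (1.65 in WT).

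Other families are given beside the 1.13% of all tested genes that were members. Cytochrome P450 genes gave 6 members of 247 (2.43%), with CYP712A2 first (0.908 in *hyl1-2*, 1.60 in WT) and 4 of the 6 from the CYP705A subfamily. Cell wall genes gave 15 of 701 (2.14%), led by the glycine-rich protein gene AT4G29020 (0.861 in *hyl1-2*, 1.75 in WT), and proteases and inhibitors 13 of 556 (2.34%). Pentatricopeptide repeat genes, for organelle RNA-binding proteins, gave 3 of 253 (1.19%), about the share of all tested genes, led by AT3G11350 (0.569), and galactose oxidase/kelch repeat genes 3 of 115 (2.61%), led by AT2G29780 (0.554), the kelch group being added after the members had been seen. Among regulators the members included AT-HSFA7B, a heat shock factor (0.970 in *hyl1-2*, 1.78 in WT), ABI4, a regulator of seed responses to abscisic acid (1.03 in *hyl1-2*, 1.72 in WT), and DRNL, a factor of organ initiation in the meristem (1.07 in *hyl1-2*, 1.89 in WT). These genes were picked for known roles. Ethylene response factor type genes gave 2 members of 162 (1.23%), MYB genes 1 of 174 (0.575%), WRKY genes 1 of 72 (1.39%) and NAC genes 0 of 117.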

How the data were processed

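Chromatin from *hyl1-2* and WT leaves was immunoprecipitated or kept as input, giving 4 libraries. The authors deposited, for each library, a list of reads aligned to TAIR10. The submitters' processing notes name Bowtie, SAMtools and bedtools. The deposited files hold coordinates, extended by 125 bp towards higher positions on both strands, and a mapping score of 0 or 255. The deposited intervals were 200 bp long in the ChIP libraries and 175 bp in the inputs, which leaves aligned reads of 75 bp and 50 bp. ChIP over input thus compares reads of unequal length, in both genotypes alike, and its effect in short or repeated genes was not tested. In the deposited files no reads of a library shared position and strand, so duplicates had been removed. Per library 11.9% to 14.5% of reads had score 0 and were left out.

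Gene positions came from the TAIR10.1 annotation, whose 5 nuclear chromosomes have the lengths reached by the reads. A read counted for a gene when its interval overlapped the gene by 1 bp, and RPM used all reads kept of the library. The standard error of the natural log of the fold change was the square root of the summed reciprocals of the 4 counts, and the 95% interval was taken on the log scale under a normal approximation. With one library per condition no test was made. The median interval reached 1.22-fold to either side for members and 1.20-fold for tested genes, and covers counting error only. Python 3.11.15, NumPy 2.4.6 and pandas 2.3.3 were used, and the counting was checked on simulated data and against direct counts. The members and gene lists were chosen with earlier results of these data known.

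Named genes were the 10 members with the lowest upper bound, the 5 with the highest WT ratio, the 5 with the lowest fold change outside gene-poor bins and above the median WT ratio of tested genes, the first of each product group with at least 3 members, the 3 on both sides of the threshold, the longest runs and HYL1. Other genes named were picked afterwards for known roles. After the values had been seen, 5 product groups, the organ words and the RY element were added, and the name pattern of the DNA replication group was corrected. Of the marker symbols, 1 was not matched. Alternatives covered score-0 reads, totals, intergenic scaling, midpoints, strand-wise extension, input, GC content, taken positions, read minimums, the 5′ part of the gene, ranking and bins.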

Additional observations from a re-analysis of the deposited data

How the results depend on the processing

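Of 36 alternative values 31 stayed close to the reported ones, meaning within 1.5-fold for counts and within 0.28 in log2 for medians. The median fold change of the members ran from log2 -1.01 to -0.56 over the alternatives. The members were chosen on these same reads, so a median below 1 in each alternative is no independent check. Scaling on intergenic windows at least 1000 bp from any gene raised the number of tested genes with an interval below 1 to 14657, because it shifted the median log2 fold change of all tested genes to -0.33, while correction for GC content lowered that number to 5422. Of the 300 members, 123 were again among the 300 lowest without division by input, 184 when ranked on the fold change itself, and 186 with a minimum of 200 reads, which only 186 of them met. With score-0 reads included 237 were kept, and 252 with reads extended along their own strand. Gene-poor bins held 61 members with bins of 500 kb and 78 with a limit of 75% of the median. No paired analysis was possible because there was one library per condition. Depth limits short genes most, and replicate variation was not measured.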
